A study of Homo sapiens with 6 samples.

Results

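The occupancy of ZNF469 was examined at 10 genes of the YAP, TAZ and TEAD pathway: the regulators YAP1, WWTR1 (which encodes TAZ), TEAD1, TEAD2, TEAD3 and TEAD4, and the target genes CCN1, CCN2, AMOTL2 and ANKRD1. Each gene was taken with 50 kb on either side of its body, and every record of the 2 deposited peak lists in these windows was counted as a member. There were 42 such records among the 19108 of the full-length ZNF469 list and 0 among the 54 of the dZF list, and the 10 genes were compared with 20007 protein-coding genes. CUT&RUN, in which an antibody guides a nuclease to cut the DNA around its target, was carried out on fixed LX-2 cells, an immortalized human hepatic stellate cell line, with an antibody against ZNF469. All cells carried a doxycycline-inducible piggyBac transgene with an HA tag, were grown with an ascorbic acid derivative and received 1 ug/mL doxycycline for 24 h. Stable lines were selected with puromycin according to the series description and with Geneticin according to the methods of the study. The transgene encoded full-length ZNF469 in one group (labelled clone3.4) and ZNF469 with most zinc fingers deleted, dZF, in the other (clone3.1). Each group had 3 libraries, which the authors combined into 1 list, and only these lists were analysed here, so that no replicate error could be computed and no difference between the groups or genes was tested. The 2 constructs carry different clone names, whose meaning the labels do not give, so that construct and line cannot be told apart. No removal of the ZNF469 gene of the cells themselves is described. The lists hold no expression values, and the stellate identity of the line was not checked here.

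YAP and TAZ are coactivators that bind no DNA themselves. When the Hippo kinases are inactive they enter the nucleus and bind the TEAD proteins, which read the letters GGAATG, and TEAD sites often lie close to sites of AP-1, the FOS and JUN family, which reads TGANTCA. The pathway responds to stiffness and cell shape and is known to be active in activated stellate cells and myofibroblasts. CCN1 and CCN2 encode secreted matricellular proteins, AMOTL2 encodes a junctional scaffold that binds and restrains YAP, and ANKRD1 encodes an ankyrin repeat protein of muscle and nucleus. All 4 are widely used as readouts of YAP and TAZ.

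Full-length ZNF469 was recorded around 9 of the 10 genes, TEAD4 being the exception, while 65.1% of all protein-coding genes had a record in the same window. A record lay in the body of 7 of the 10 genes (33.7% of all genes) and within 3 kb of a start of 7 (27.5% of all genes). The bodies of the 4 targets are short, 3.2 kb for CCN2 to 20.1 kb for AMOTL2, and all 4 held a record, against 18.9% of the 8402 genes with bodies no longer than that of AMOTL2. The number of records was at least 4 at 7 of the 10 genes, against 15.5% of all genes. YAP1, WWTR1 and TEAD1 were the regulators among them. The shares of all genes are given as a scale only, since neighbouring genes share windows and longer genes have longer ones.

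To show what the records contain, the sequence from 100 bp before to 100 bp after the summit, the point of highest coverage, is given for those to which the description below returns, on the plus strand of hg38. Capitals mark GGAATG or its reverse complement CATTCC, here called TEAD letters, and TGANTCA, which is its own reverse complement, here called AP-1 letters. With any base at N, TGANTCA is wider than the AP-1 site and also takes in TGAATCA and TGATTCA. The first 4 are distal records of the targets, 3 of which hold both kinds of letters, and the fourth holds TEAD letters at its summit.
CCN2, chr6:131954824-131955024: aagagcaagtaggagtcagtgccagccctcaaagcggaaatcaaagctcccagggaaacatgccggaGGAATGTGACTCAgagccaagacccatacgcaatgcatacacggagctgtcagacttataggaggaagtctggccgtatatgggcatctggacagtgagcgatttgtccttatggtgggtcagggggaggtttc
CCN2, chr6:131996059-131996259: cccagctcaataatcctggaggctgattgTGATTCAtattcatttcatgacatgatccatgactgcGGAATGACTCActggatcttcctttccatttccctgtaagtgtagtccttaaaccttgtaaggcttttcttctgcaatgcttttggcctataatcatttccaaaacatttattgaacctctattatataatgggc
CCN1, chr1:85607462-85607662: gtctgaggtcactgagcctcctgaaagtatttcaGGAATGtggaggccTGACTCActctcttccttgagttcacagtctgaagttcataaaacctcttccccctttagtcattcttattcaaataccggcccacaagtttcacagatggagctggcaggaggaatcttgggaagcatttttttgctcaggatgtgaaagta
CCN1, chr1:85612863-85613063: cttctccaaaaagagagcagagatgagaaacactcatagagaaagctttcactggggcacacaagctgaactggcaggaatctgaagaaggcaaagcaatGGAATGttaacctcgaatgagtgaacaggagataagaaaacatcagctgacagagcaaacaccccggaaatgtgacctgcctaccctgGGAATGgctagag

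The next 3 are the target record with the highest pileup, before CCN1, the regulator record with the highest pileup, inside YAP1, and the regulator record that holds both kinds of letters, downstream of YAP1.
CCN1, chr1:85578584-85578784: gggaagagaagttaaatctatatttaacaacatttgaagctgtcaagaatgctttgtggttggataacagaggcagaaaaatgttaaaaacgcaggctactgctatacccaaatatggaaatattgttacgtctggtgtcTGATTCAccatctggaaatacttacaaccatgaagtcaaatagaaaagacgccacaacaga
YAP1, chr11:102112088-102112288: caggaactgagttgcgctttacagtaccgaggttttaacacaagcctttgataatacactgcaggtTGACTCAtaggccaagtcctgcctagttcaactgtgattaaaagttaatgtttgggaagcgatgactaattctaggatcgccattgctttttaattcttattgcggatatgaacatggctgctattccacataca
YAP1, chr11:102256215-102256415: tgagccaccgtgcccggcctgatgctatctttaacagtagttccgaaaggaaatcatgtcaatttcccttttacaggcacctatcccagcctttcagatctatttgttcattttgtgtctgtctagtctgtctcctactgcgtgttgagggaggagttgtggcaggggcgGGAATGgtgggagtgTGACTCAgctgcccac

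The last set holds the 250 bases before the RefSeq start of CCN2 and of ANKRD1 (GRCh38.p14), on the strand of the gene, because a record covered the ANKRD1 promoter whole and the CCN2 promoter in part, and both held more TEAD letters than the other member promoters searched.
CCN2 promoter, chr6:131951373-131951622, minus strand: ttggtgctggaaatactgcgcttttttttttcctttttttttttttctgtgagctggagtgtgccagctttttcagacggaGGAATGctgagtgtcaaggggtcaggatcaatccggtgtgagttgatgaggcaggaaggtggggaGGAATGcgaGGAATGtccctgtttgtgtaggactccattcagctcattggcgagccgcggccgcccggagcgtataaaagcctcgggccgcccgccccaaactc
ANKRD1 promoter, chr10:90921088-90921337, minus strand: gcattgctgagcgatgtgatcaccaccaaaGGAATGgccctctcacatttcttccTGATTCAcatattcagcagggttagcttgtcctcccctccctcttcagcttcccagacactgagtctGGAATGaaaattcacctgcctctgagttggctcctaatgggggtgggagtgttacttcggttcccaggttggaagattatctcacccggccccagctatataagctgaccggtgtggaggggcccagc

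CCN1 had the most records of the 10 genes. CCN1 lies on chromosome 1 from 85580761 to 85584589 (ENSG00000142871.18, plus strand), and its window of 104 kb held 8 records, or 7.7 per 100 kb. Only 39 of the 20007 protein-coding genes, CCN1 included, had as many per 100 kb. The summit pileup is taken here as the number of fragments of the pooled libraries that cover the summit. It was 16, 21 and 80 at the 3 records before the gene and 76 at its end. The 4 records beyond the gene had 65, 56, 40 and 27. The median of all full-length records was 20. Thus 6 of the 8 records stood above that median by more than a few fragments, and the exceptions were the outermost records before the gene. The highest, chr1:85578085-85578838 (80 fragments, 95% Poisson limits 63.4 to 99.6), ranked 44 in the full-length list. It lay 1.92 kb before the body of CCN1 and covered the annotated start of DDAH1, a gene for a dimethylarginine hydrolase that runs in the opposite direction, and the other 2 records before CCN1 lay in the body of DDAH1. The Poisson limits cover counting error only.

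The record at the end of CCN1, chr1:85584084-85584831, had 76 fragments (59.9 to 95.1). It lay past the last exon of the canonical transcript and overlapped the last exon of another annotated transcript. Beyond the gene, chr1:85606990-85607770 had 65 fragments (50.2 to 82.8) and lay 22.4 kb from the gene end. The records at 26.9 and 28 kb had 56 (42.3 to 72.7) and 40 (28.6 to 54.5) fragments, and the record at 38.3 kb had 27 (17.8 to 39.3). Pileup was therefore lower with distance from CCN1 on this side, while the limits of neighbouring records overlapped. The letters near the summits differed between the sides of the gene. All 3 records before it held AP-1 letters and no TEAD letters within 100 bp of the summit. The 5 from the gene end onward all held TEAD letters, 1 of them with AP-1 letters as well. Of the 4 CCN1 records with AP-1 letters, 2 held TGACTCA, namely those 11.3 kb before and 22.4 kb beyond the gene. The others held TGATTCA. In the whole list 42% of records held AP-1 letters and 21.1% TEAD letters. The difference between the sides was not tested. At the record 28 kb beyond the gene, whose sequence is printed above, the summit lay on the TEAD letters. Fold enrichment, the pileup over the local background with 1 added to each, stayed between 5.46 and 9.31. The local background was 6.38 to 10.9 fragments at 5 of the 8 records, against a median of 1.82 over the whole list. At the remaining records it was 1.67, 2.42 and 2.01, with folds of 6.37, 6.43 and 9.31.

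CCN2 was recorded at its promoter and at 2 sites upstream. CCN2 lies on chromosome 6 from 131948176 to 131951372 (ENSG00000118523.6, minus strand) and its window held 4 records, or 3.88 per 100 kb, which 4.74% of protein-coding genes reached. The promoter record, chr6:131951351-131951511, was only 161 bp wide. It had 29 fragments (19.4 to 41.6) over a background of 4.51, a fold of 5.44, and a summit 47 bp before the start. The promoter of CCN2 holds TEAD letters at 3 places, as do 45 of the 35116 RefSeq promoters of 300 bases (0.128%) with 3 or more. The 2 places nearer to the start, 90 and 99 bp before it, were inside the record, 43 and 52 bp from its summit, and the place 164 bp before the start was outside.

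The upstream records of CCN2 lay 3.35 and 44.7 kb from the gene. The nearer, chr6:131954718-131955111, had 22 fragments (13.8 to 33.3), and the farther, chr6:131996078-131996457, had 12 (6.2 to 21). In both, TEAD and AP-1 letters touched, as the printed sequences show. At the nearer record GGAATG was followed directly by TGACTCA, and at the farther one the 2 sets shared 2 bases. The record 9.48 kb beyond the gene end had 17 fragments (9.9 to 27.2) and held neither within 100 bp of its summit. Pileups at CCN2 thus ran from 12 to 29, below the 40 to 80 of the 5 highest records at CCN1, although the limits of the CCN2 promoter record overlapped those of the weakest of these.

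AMOTL2 carried records of high pileup without TEAD letters near their summits. AMOTL2 lies on chromosome 3 from 134355347 to 134375479 (ENSG00000114019.15, minus strand), with 5 records in its window, or 4.16 per 100 kb (3.82% of genes had as many). The pileups were 38 near the canonical start, 46 and 60 farther inside the gene, and 32 and 47 beyond its end. All 5 were above the median of the full-length list. Their local background was 4.59 to 5.28 fragments, against a median of 1.82 over the list. Their median fold was 7.48, near the 7.36 of the list, with 5.54 as the lowest. The record with 60 fragments (45.8 to 77.2), chr3:134357757-134358575, overlapped coding exons 9 and 10 and had a fold of 10.9, the highest of the 42. The record chr3:134373560-134373960 lay 0.652 kb inside the canonical start and 1 bp from another annotated start of the gene. Only 1 of the 5 held letters of either kind near its summit, AP-1 letters at chr3:134328278-134328501, 26.8 kb beyond the gene end.

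ANKRD1 was recorded most strongly at its own promoter. ANKRD1 lies on chromosome 10 from 90912096 to 90921087 (ENSG00000148677.7, minus strand), with 5 records in its window, or 4.59 per 100 kb (2.94% of genes had as many). The promoter record, chr10:90920895-90921783, covered the first exon and its upstream sequence with 46 fragments (33.7 to 61.4) and a fold of 10.5, which ranked 1490 by fold. The printed ANKRD1 promoter lay entirely under it and held TEAD letters at 2 places and AP-1 letters at 1, 205 bp or more from the summit, which was 425 bp before the start. The records 9.41, 39.3 and 47.6 kb upstream had 24, 24 and 26 fragments. The nearest of them held TEAD letters 15 bp from the summit, and the next held AP-1 letters 46 bp from it. The fifth record, with 15 fragments, lay 45 bp from the start of RPP30, a ribonuclease P subunit gene, 40.2 kb beyond the end of ANKRD1.

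**Figure D1:**
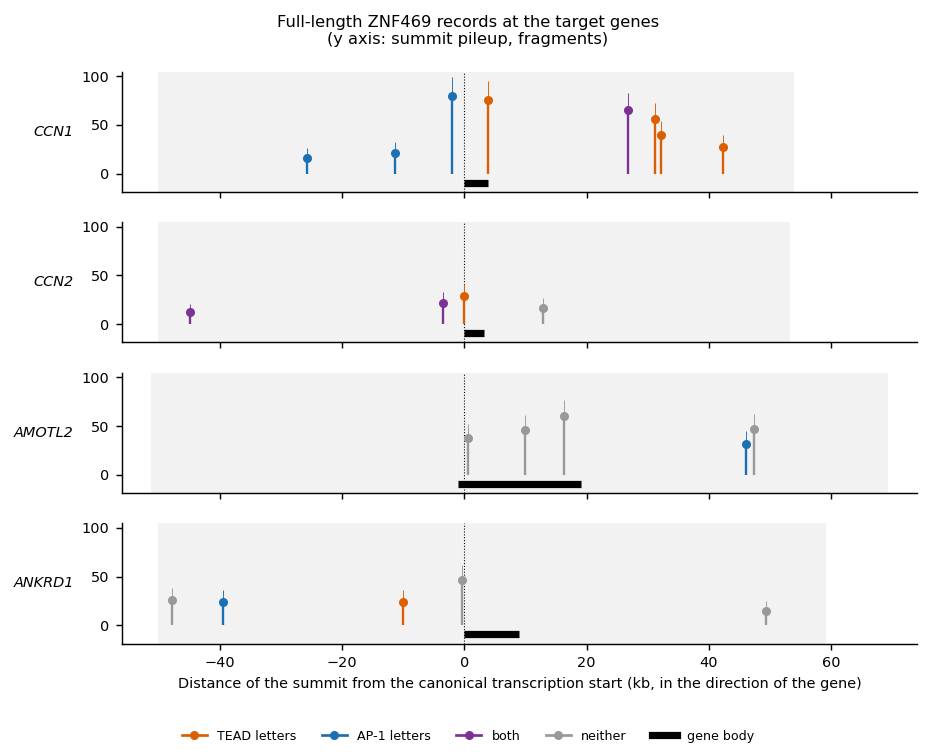
Each panel shows 1 target gene, with the distance of the summit from the canonical start in kb on the x axis and the summit pileup in fragments on the y axis. Points are records colored by the letters within 100 bp of the summit, thin lines are 95% Poisson limits, grey is the window searched and the black bar is the gene body. The records of CCN1 reach 80 fragments and those from its end onward hold TEAD letters within 100 bp of the summit. The records of AMOTL2 in the gene hold neither kind within that distance.

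YAP1 had the most records of the regulators. YAP1 lies on chromosome 11 from 102110447 to 102233424 (ENSG00000137693.14, plus strand), with 7 records in its window, or 3.14 per 100 kb (8.72% of genes had as many). The record chr11:102111860-102112423 had 40 fragments (28.6 to 54.5) and a fold of 8.61, the highest pileup at any regulator. It lay in an intron 1.74 kb inside the canonical start and 91 bp from another annotated start. The other 6 had 8 to 21 fragments, of which 3 lay in introns and had 17, 21 and 16. All 4 records in the body of YAP1 held AP-1 letters, 11 to 75 bp from the summit, and none held TEAD letters within 100 bp of the summit. The intron record with 17 fragments held AP-1 letters only as TGAATCA and TGATTCA. Of the 2 records beyond the gene, the one 22.8 kb from its end held both, with 9 bases between them, as printed above. The weakest of the 42 records, with 8 fragments (3.45 to 15.8), lay 28.7 kb before YAP1 in the body of CFAP300.

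WWTR1 was recorded at its starts. WWTR1 lies on chromosome 3 from 149517235 to 149736714 (ENSG00000018408.15, minus strand), with 4 records, all in its body and all within 3 kb of a start of the gene. The record at the canonical start, chr3:149657915-149658286, had 23 fragments (14.6 to 34.5) with its summit 86 bp before that start. A start inside the gene, 81.8 kb beyond the canonical one, had 2 records, with 30 (20.2 to 42.8) and 21 (13 to 32.1) fragments. The record with 30 had its summit 1 bp from that start, and the record with 21, whose fold of 4.68 was the lowest of the 42, held TEAD letters at 2 places. The fourth, 15.5 kb before the canonical start and 2467 bp from another, had 10 fragments (4.8 to 18.4) and held AP-1 letters as TGAATCA. This came to 1.25 records per 100 kb, and 35.1% of protein-coding genes had as many.

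The TEAD genes differed from one another. TEAD1 lies on chromosome 11 from 12674421 to 12944737 (ENSG00000187079.20, plus strand) and had 6 records with 14 to 23 fragments, 5 of them in introns and none within 3 kb of a start of TEAD1. Spread over 370 kb, this came to 1.62 per 100 kb (28.7% of genes had as many). The record 48.3 kb before TEAD1, chr11:12625491-12626133, had 23 fragments (14.6 to 34.5) and held TEAD letters at 2 neighbouring places, 28 bp and more from the summit. TEAD2 (chromosome 19, 49340595 to 49362457, ENSG00000074219.14, minus strand) had 1 record with 12 fragments (6.2 to 21), which lay 1.15 kb before its body at the start of DKKL1 and held TEAD letters. TEAD3 (chromosome 6, 35473597 to 35497079, ENSG00000007866.22, minus strand) had 2 records, with 24 and 17 fragments, 48.1 and 45.1 kb beyond its end, both in the body of PPARD, a nuclear receptor gene, and both with AP-1 letters. TEAD4 (chromosome 12, 2959330 to 3040676, ENSG00000197905.10, plus strand) had 0. The bodies of TEAD2, TEAD3 and TEAD4 thus held no record, and the records in the windows of TEAD2 and TEAD3 lay at or in other genes.

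**Figure D2:**
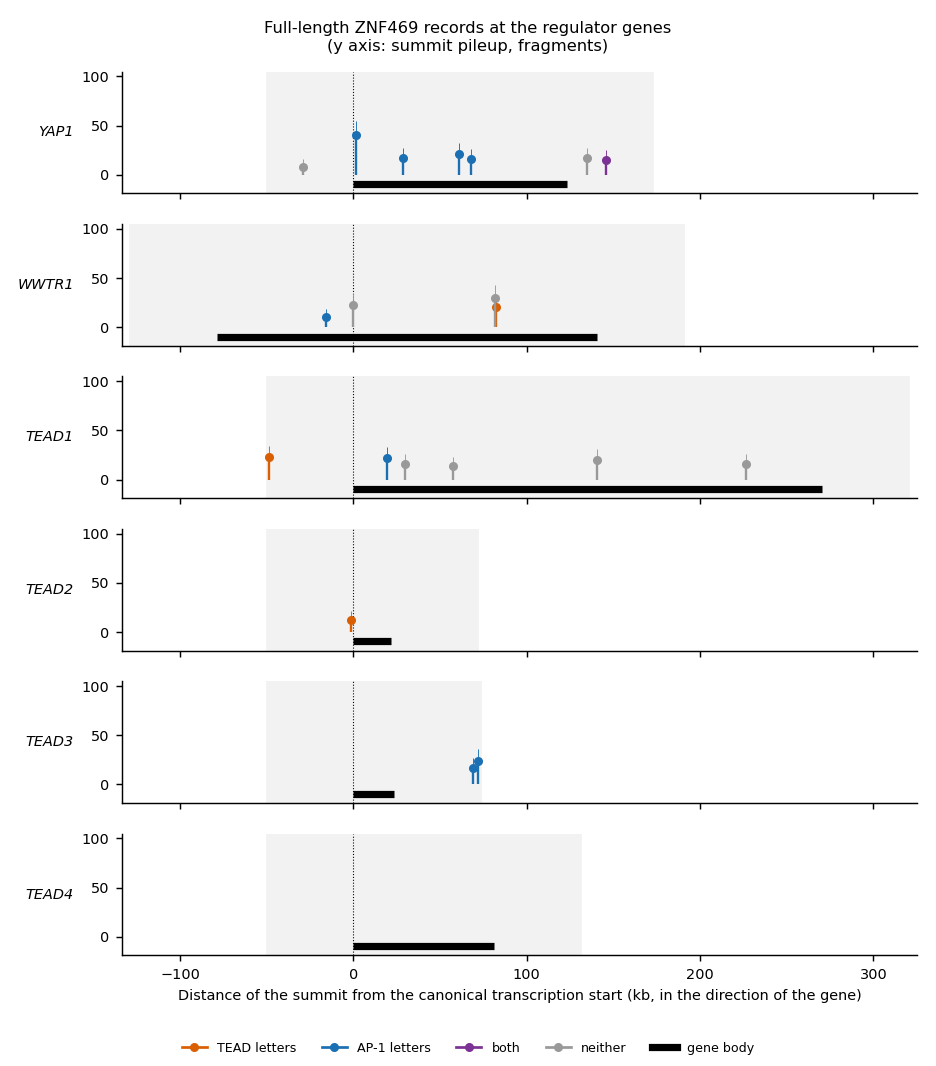
Each panel shows 1 regulator gene on the axes and colors used for the targets, with the distance of the summit from the canonical start in kb on the x axis and the summit pileup in fragments on the y axis. The record inside YAP1 with 40 fragments is the highest, all others lie at 30 or below, and the window of TEAD4 is empty.

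The targets were more densely recorded than the regulators. The 4 target windows held 22 records in 436 kb, or 5.04 per 100 kb, and the 6 regulator windows held 20 in 1339 kb, or 1.49 per 100 kb, a ratio of 3.38. The median protein-coding gene had 0.806 per 100 kb. Per 100 kb each of the 4 targets was above each of the 6 regulators, with CCN2 as the lowest target (3.88) and YAP1 as the highest regulator (3.14). By number of records the order differed. CCN1 had 8, YAP1 7 and TEAD1 6, against 5 each at AMOTL2 and ANKRD1 and 4 at CCN2, whose windows are shorter than those of YAP1 and TEAD1. Without CCN1 the ratio was 2.82. In the flanks alone the targets had 4 records per 100 kb and the regulators 1.17. With flanks of 100 kb the ratio was 1.96. These are counts in 1 pooled list, without replicate error.

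**Figure D3:**
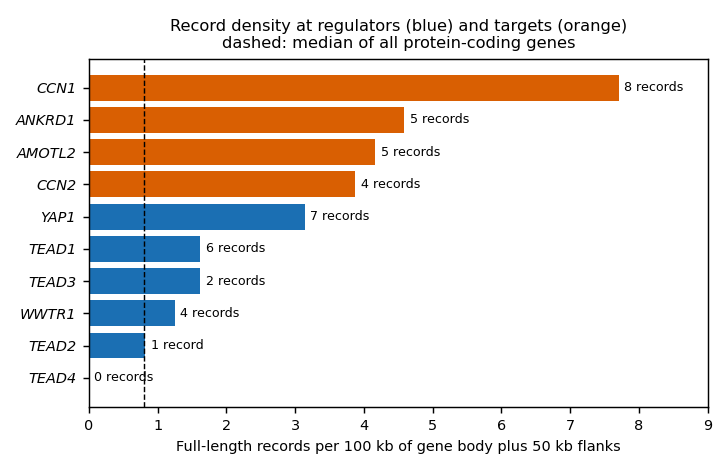
Bars give the number of full-length records per 100 kb of gene body plus 50 kb flanks for each gene, with the number of records beside each bar. The dashed line is the median of all protein-coding genes, 0.806, and the 4 targets, at 3.88 to 7.7, lie above the 6 regulators, at 0 to 3.14.

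Targets also had higher pileups, over a higher local background. Their median pileup was 30.5 fragments (range 12 to 80) and that of the regulators 17 (range 8 to 40), so the ranges overlapped. Of the target records, 13 of 22 (59.1%) had a pileup in the upper 25% of the full-length list, and of the regulator records 2 of 20 (10%), against 26.1% of all records, ties included. The median local background was 4.11 fragments at the targets, 1.68 at the regulators and 1.82 over the list. The fold did not follow. Its median was 6.64 at the targets, 6.7 at the regulators and 7.36 over the list, and only 3 target records and 1 regulator record were in the upper 25% by fold. Without CCN1 the median fold at the targets was 7.11, above the regulators, and their median pileup was 27.5. Counting only records whose nearest coding start was that of the member, the median pileups were 35 at 18 target and 18.5 at 16 regulator records. The local background rises where the surrounding sequence is covered as well. Local background moved with pileup here, and its part in the difference between targets and regulators was not tested.

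**Figure D4:**
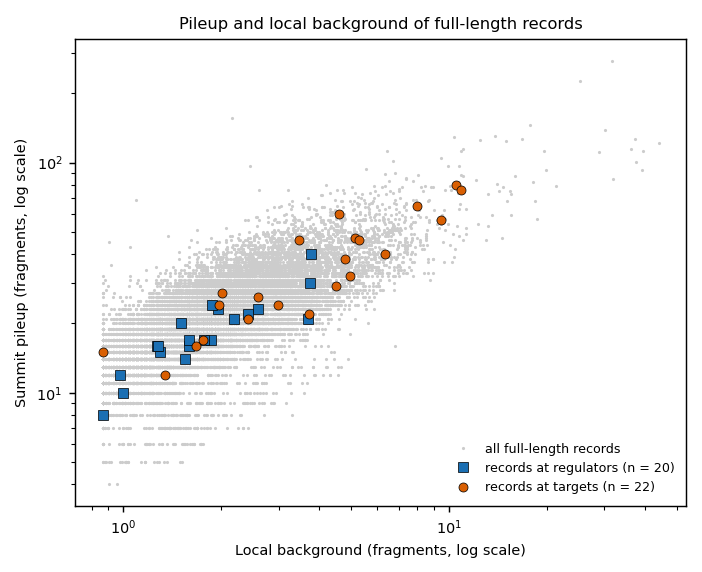
Summit pileup in fragments on the y axis is plotted against the local background in fragments on the x axis, both on log scales, for all full-length records (grey), those at regulators (blue squares) and those at targets (orange circles). Of the 8 CCN1 records, 5 lie at the upper right, with 40 to 80 fragments over a background of 6.38 to 10.9, and the members follow the band of the whole list.

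Promoter and distal records were found at both sets. Of the 42 records, 15 (35.7%, 95% Wilson interval 23% to 50.8%) lay within 3 kb of an annotated start of any gene, against 39.3% of the full-length list. The share was 9 of 22 (40.9%, 23.3% to 61.3%) at the targets and 6 of 20 (30%, 14.5% to 51.9%) at the regulators, with intervals that overlapped. The nearest start was one of the member itself for 5 of the 6 regulator records, and for 5 of the 9 target records. These 5 target records include that at the end of CCN1, with 76 fragments. It lay 2621 bp from an annotated start of CCN1, with its summit 3.82 kb beyond the canonical start. No record covered the canonical start of CCN1. The other promoter records were that at DKKL1, 1.149 kb before the body of TEAD2, and that at an unnamed gene and DDAH1, 1.923 kb before the body of CCN1. The rest were those at the RPL39P5 pseudogene inside AMOTL2, at RPP30 and at another unnamed gene upstream of ANKRD1. Promoter records at the targets had a median pileup of 46 and those at the regulators 22, against 21 for all promoter records. Distal records had medians of 24 and 17, against 20. A record whose summit lay within 1 kb of the canonical start was present at WWTR1, CCN2, AMOTL2 and ANKRD1. In the canonical transcripts 4 records overlapped an exon, at WWTR1, CCN2, AMOTL2 and ANKRD1. The records had a median width of 450.5 bp and a median GC content of 45.3% within 100 bp of the summit, close to the 440 bp and 45.3% of the list.

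TEAD letters were more common at target records in count, mainly through CCN1. They occurred within 100 bp of the summit in 9 of 22 target records (40.9%, 95% Wilson interval 23.3% to 61.3%), in 4 of 20 regulator records (20%, 8.07% to 41.6%) and in 21.1% of all 19108 records over the same 201 bp. The lower limit for the targets lay above the share of the list, but the intervals of targets and regulators overlapped. Without CCN1 the target count was 4 of 14 (28.6%, 11.7% to 54.6%), an interval that includes the share of the list. By gene, TEAD letters were in 5 of 8 records at CCN1, 3 of 4 at CCN2, 1 of 5 at ANKRD1 and 0 of 5 at AMOTL2. At distal records the counts were 7 of 13 for targets and 2 of 14 for regulators, against 24.5% of all distal records. Wilson intervals treat records as independent, which records of 1 locus may not be.

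AP-1 letters were about as common as in the list. They occurred in 8 of 22 target records (36.4%, 19.7% to 57%), in 9 of 20 regulator records (45%, 25.8% to 65.8%) and in 42% of all records. YAP1 had 5 of the 9 at regulators, and CCN1 had 4 of the 8 at targets. For TGACTCA or TGAGTCA alone the count was 13 of the 42 records (31%), against 32.3% of the list. It was 6 of 22 at targets and 7 of 20 at regulators. Both kinds of letters occurred in 4 of the 42 records (9.52%), against 8.74% of the list, and 16 of the 42 held neither (38.1%, against 45.6%). In all 4 records with both, the letters were at most 9 bases apart, a distance chosen after the values were seen. Of the 1670 records of the list with both, 26.2% had them as close, and 11.7% had them touching or sharing bases, as the 2 upstream records of CCN2 did. A match of letters is a description of the sequence, and no binding of TEAD or AP-1 was measured.

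**Figure D5:**
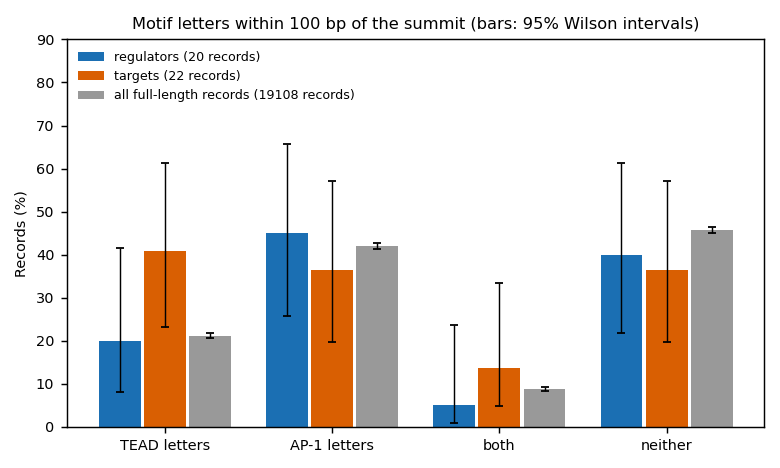
Bars give the percentage of records with TEAD letters, AP-1 letters, both and neither within 100 bp of the summit, at regulators (blue), targets (orange) and in the whole full-length list (grey), and error bars are 95% Wilson intervals. Records with both also count under each kind, and the bar for TEAD letters at targets, 40.9%, stands above the 20% of the regulators with overlapping intervals.

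The RefSeq promoters, 250 bases before to 50 after a start, matched 7 of the 10 genes with 10 promoters. The promoters of CCN1, TEAD1 and TEAD4 were not analysed here. TEAD letters were in 4 of these (CCN2, ANKRD1, YAP1 and 1 of AMOTL2), against 14% of all 35116 promoters. AP-1 letters were in 1 (ANKRD1, as TGATTCA), against 7.71%. A record overlapped the promoters of CCN2 and ANKRD1 and 1 promoter of WWTR1. The share of all promoters with a record was not analysed here, so this count has no scale beside it. The TEAD letters of the YAP1 and AMOTL2 promoters were not under a record.

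With the zinc fingers deleted, no record was found in any of the 10 windows, where the full-length list had 42. A dZF record in this window was present at 0.21% of all protein-coding genes, so that 0 of 10 is near what the list holds elsewhere. The dZF record nearest to a member was 4.39 Mb from ANKRD1. The lowest local background, taken as a measure of depth, was 0.865 fragments in the full-length pool and 0.625 in the dZF pool, a ratio of 1.38. After scaling down by this ratio, 39 of the 42 records still had a −log10 p-value at or above the lowest of the dZF list, 7.62, namely 21 of 22 at targets and 18 of 20 at regulators. The records that fell below it were the weakest of YAP1, the weakest of WWTR1 and the farthest upstream of CCN2. Records were kept by an irreproducible discovery rate filter, so that reaching this value does not mean that a record would be listed. The part of depth in the absence of dZF records was not tested.

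The other genes of the pathway were examined as 2 lists. Of 16 Hippo pathway genes outside the members, 15 had a record in the body plus 50 kb (65.1% of all genes), 12 in the body (33.7%), 8 near a start (27.5%) and 2 had at least 4 records (15.5%). Their median was 1.4 records per 100 kb, against 0.806 for the median gene. The genes with the most records were WWC1 (6), a scaffold that activates the LATS kinases, and VGLL4 (5), a cofactor that competes with YAP for TEAD. Another 8 genes had 3 each, among them NF2, the gene of merlin, and LATS2, a kinase that inactivates YAP, which covered the most sequence of the 8. Pileups at WWC1, VGLL4, NF2 and LATS2 ran from 7 to 36. The highest pileup of the list was 64, at STK4, a kinase that acts on LATS and is named here after its value was seen. VGLL1 had 0.

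Of 18 other target genes, of which LATS2 and its 3 records are also in the Hippo list, 17 had a record in the window (65.1% of all genes). A record lay in the body of 14 (33.7% of all genes) and near a start of 12 (27.5%), and 13 had at least 4 records (15.5%). Longer genes have longer windows, so these shares are a scale only. The median of the 18 genes was 3.05 per 100 kb, below each of the 4 targets described above. Single genes of this list were above some of those targets. CRIM1, a transmembrane protein that binds growth factors, had 16 records with up to 80 fragments, and ASAP1, a GTPase-activating protein of focal adhesions, had 16 with up to 39. RBMS3, an RNA-binding protein, and PTPN14, a phosphatase that binds YAP, had 11 each. Per 100 kb CRIM1 had 5.42, above CCN2, AMOTL2 and ANKRD1, and ASAP1 had 3.25. RBMS3, a long gene, had 0.716, below the median gene, and PTPN14 had 3.62. GADD45A, a stress response gene named here after its value was seen, had 10 records in its window, or 9.7 per 100 kb, above CCN1. FOXF2 had 0. TEAD letters were in 36 of the 125 records of this list (28.8%) and in 9 of the 43 of the Hippo list (20.9%), and AP-1 letters in 49 (39.2%) and 13 (30.2%). Of all full-length records, 21.1% held TEAD letters and 42% AP-1 letters. Neither list had a gene with a dZF record.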

How the data were processed

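The deposited data were 2 peak lists, 1 per construct, from 6 CUT&RUN libraries (3 per group). The submitters' processing notes name Bowtie2 2.3.4.3, MACS2 2.2.5 and hg38, without roles. The authors combined the libraries of a group and kept records by an irreproducible discovery rate filter. Call settings and any control are not given in the sources used here. The deposited columns hold, for each record, a score (540 to 1000 in the full-length list), a fold enrichment (a ratio), −log10 p-value and q-value, and the summit position. Score and q-value were not used in any comparison.

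Pileup and local background were recovered as the whole number that explains fold, (pileup + 1)/(background + 1), and the Poisson −log10 p-value together. This succeeded for 100% of records within 0.001 in −log10 p, with a largest miss of 6.94e-05, and was tested on simulated records. The unit that the caller counted depends on the call settings and is not known. Fragments were assumed, also for the Poisson limits. Total reads per library were not analysed here.

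Gene bodies, canonical transcripts and starts came from GENCODE version 44. A record belonged to a window by at least 1 bp of overlap, and a record within 3 kb of any annotated start was called promoter. Motif letters were sought on both strands in hg38. No test was made, since only the pooled lists were analysed here. Python 3.11.15, pandas 2.3.3, scipy 1.17.1, statsmodels 0.14.6 and pysam 0.24.0 were used. The members, lists and comparisons were chosen with earlier results of these data known. The genes named in each pathway list were the 4 with the most records in the window, ties broken by covered length. Alternatives were other flanks, windows, motifs and stricter subsets of the list.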

Additional observations from a re-analysis of the deposited data

How the results depend on the processing

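The 8 results were recomputed under other settings, most of which bore on several results, and this gave 47 alternative values. Of these values 6 were added after the data were seen (CCN1 left out, and only records nearest to a member's own start). A share was taken as unmoved within its 95% Wilson interval and other values within 1.5 times, which held for 26. The 42 member records became 26 with flanks of 20 kb, 14 in the upper 50% of the list by fold and 15 in the upper 25% by pileup, where 4 and 6 member genes had a record in the body in place of 7. The density ratio of targets over regulators, 3.38, was 1.96 with flanks of 100 kb and 19.96 in the upper 25% by pileup. It stayed above 1 in every alternative run. The median pileup at targets exceeded that at regulators by 13.5 fragments, by 21 with flanks of 20 kb and by 8.5 with 100 kb. The median fold difference, targets minus regulators, was -0.06 and had no stable sign. It was -0.13 with flanks of 20 kb, -0.19 with 100 kb, -0.56 in the upper 25% by pileup, -0.17 for records nearest to a member's own start, 0.25 in the upper 50% by fold and 0.41 without CCN1. The promoter share of 35.7% was 60% in the upper 25% by pileup. The share with TEAD letters, 31%, was 14.3% in the upper 50% by fold (21.7% of that subset of the list) and 40% in the upper 25% by pileup (23.4%). It was 16.7% within 50 bp of the summit (11.7% of the list), 52.4% over whole records (35.6%) and 11.9% for GGAATGT (7.72%). With flanks of 20 kb it was 23.1%, with 100 kb 33.9% and without CCN1 23.5%, against 21.1% of the list. The share with AP-1 letters, 40.5%, was 21.4% in the upper 50% by fold (44.6%) and 26.7% in the upper 25% by pileup (43.1%). The cause was not tested, beyond the fewer records that each subset leaves. No paired analysis was possible because no value per library was at hand, and leaving out single libraries was not run for that reason.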
